A study of Canis lupus familiaris with 28 samples.

Results

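The comparison set 3 confluent libraries of TR-T10 dog cells with both p190 knockdowns and the YAP mutant YAP5SA+S94A against 3 confluent libraries of wild-type TR-T10 cells, 6 of the 28 samples of the series. Members were chosen by their labels alone, as the second-experiment samples of these 2 groups. TR-T10 cells, of dog origin, make a tetracycline repressor, so that doxycycline switches on the constructs put into them. The mutant cells carried doxycycline-inducible shRNAs against p190A (ARHGAP35) and p190B (ARHGAP5), introduced by retrovirus with hygromycin and puromycin selection, and a lentiviral YAP5SA+S94A selected with G418. They are called S94A cells below. Induction used 4 µg/ml doxycycline for 3 days, followed by 3 to 5 days after replating, per the labels' protocols. In these cells induction of the YAP mutant was tied to induction of both knockdowns, because all were under the same repressor. The labels do not say whether wild-type cells received doxycycline, whether a line was 1 clone, or whether replicates were separate cultures, and every p-value below therefore reflects only how far these libraries scatter, which may be technical. The labels describe no selection of wild-type cells, and the effects of selection and of the constructs cannot be told apart here. Double knockdown cells of the same experiment, without a YAP construct, gave the values set beside it (3 libraries).

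p190A and p190B are related GTPase-activating proteins. YAP1 is a transcriptional coactivator of the Hippo pathway. In dense cultures the LATS kinases phosphorylate it on serines and keep it in the cytoplasm, and in sparse cultures it enters the nucleus and works mainly through TEAD transcription factors, which bind DNA. YAP5SA has those serines changed to alanine and escapes the kinases, and the added S94A change removes the contact with TEAD. The comparison therefore asked what differs from wild type when p190 is depleted and the expressed YAP cannot bind TEAD. The labels describe no removal of endogenous YAP1.

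Counts were of reads per Ensembl dog transcript, and no table used here pairs those identifiers with gene names (0 of 29884 matched a reference list of 43286 dog genes). For that reason neither the knockdown targets nor YAP1, nor defining markers of the cell type, were read as a check of the labels, and transcripts are described as groups. The reads counted to 1 transcript numbered 12316084 to 15192084 per S94A library and 13187105 to 15136573 per wild-type library. The S94A libraries had 15577 to 15812 transcripts with at least 1 count and the wild-type libraries 16043 to 16264. Of the 3 files labelled YAP5SA, another group of the experiment, replicates 1 and 2 had the same value for every transcript and counted as 1 sample. The labels disagree on whether that group also held the shRNAs. It entered the fit through the filter on low counts, the TMM scaling and the estimate of the spread. It also entered mean levels over experiment 2, and no test compared it with another group.

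Within each group the libraries lay close together. The median absolute difference per transcript between any pair of S94A libraries was 0.0797 to 0.0837 on the log2 CPM scale, and between any pair of wild-type libraries 0.0865 to 0.102. CPM is counts per 1000000 transcript-assigned reads, after TMM scaling. Between an S94A and a wild-type library the difference was 0.247 to 0.270, and between a double knockdown and a wild-type library 0.363 to 0.392. S94A and double knockdown libraries differed by 0.228 to 0.244. No library stood apart from its group by this measure, and differences between groups did not overlap those within groups.

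S94A cells differed from wild type at 7361 of 13061 transcripts tested, 56.4% (edgeR quasi-likelihood, Benjamini-Hochberg adjusted p under 0.05). Of these, 3807 were higher (29.1% of those tested) and 3554 were lower (27.2%). Most changes were small. Under 2-fold were 6360, or 86.4% of the calls, and the median absolute log2 fold change among calls was 0.37. Past 2-fold, 319 were higher (2.44%) and 682 lower (5.22%). The excess of lowered transcripts widened with size: 70 were at least 4-fold higher against 251 lower, 21 against 120 at 8-fold, and 10 against 66 at 16-fold. Tested against a 1.5-fold change with glmTreat in place of no change, 485 were higher and 723 lower, 9.25% of those tested. Without regard to a test, all 3 S94A libraries lay above all 3 wild-type libraries at 31.6% of transcripts and below them at 29.7%.

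**Figure D1:**
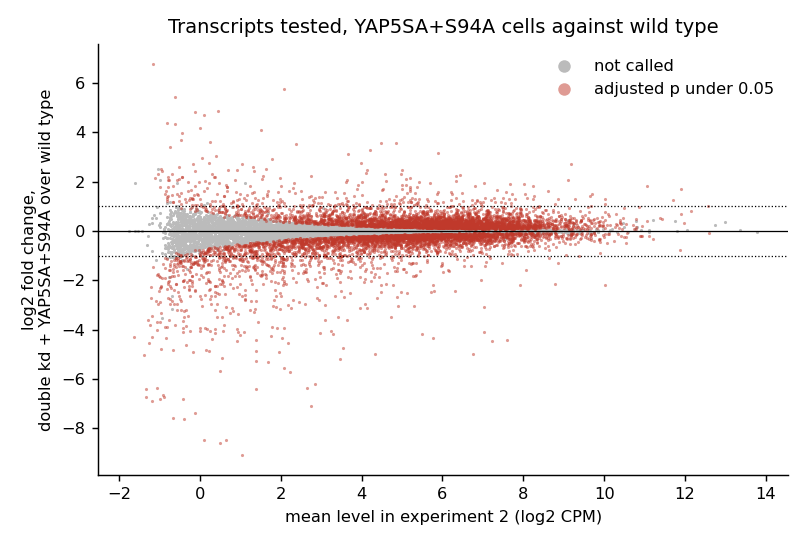
Each point is 1 of the 13061 transcripts tested, with its mean level in experiment 2 on the x axis (log2 CPM) and its log2 fold change in S94A cells over wild type on the y axis. Red points passed adjusted p under 0.05, dotted lines mark 2-fold, and "kd" stands for knockdown. Points far below the lower line are more numerous than points far above the upper one.

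Among transcripts of low level more fell than rose. The 13061 transcripts were put in 4 bins of equal size by their mean level in confluent wild-type cells of experiment 1, libraries that had no part in the fold changes. In the lowest bin (0 to 4.28 CPM), 430 fell and 169 rose by 2-fold or more. The next bin, up to 21.5 CPM, had 160 lower and 70 higher, and the third, up to 68.1 CPM, 60 and 33. In the highest bin 32 fell and 47 rose by 2-fold or more. Without a fold minimum, 727 were lower and 361 higher in the lowest bin, against 937 lower and 1489 higher in the highest. The share called was 33.3% in the lowest bin and 74.3% in the highest. The order in the highest bin depended on the level used: by the wild-type mean of experiment 2 there were 43 lower and 35 higher by 2-fold or more, and by the mean over all libraries of that experiment, which holds the change itself, 25 and 57. In the lowest bin these counts were 380 and 179, and 460 and 145.

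**Figure D2:**
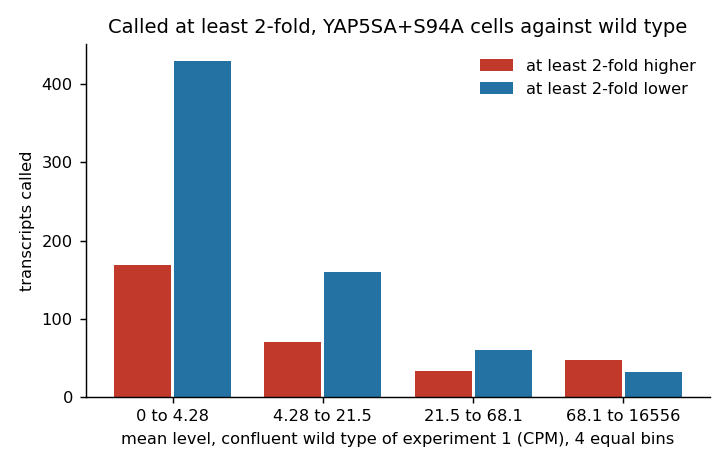
Bars count transcripts called at least 2-fold higher (red) or lower (blue) in S94A cells than in wild type, in 4 equal bins of the mean level in confluent wild-type cells of experiment 1 (CPM, x axis). Lowered transcripts lead in the lowest bin (430 against 169) and not in the highest (32 against 47).

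The 100 most abundant transcripts were chosen on their mean over the experiment. They held 18.6% to 21.98% of 1000000 CPM in S94A and wild-type libraries. After TMM scaling the CPM values of a library need not add up to 1000000. Summed levels here and below are therefore scaled levels, not shares of a library's reads. Of these 100, 50 were higher and 26 lower in S94A cells, where 29.1% and 27.2% of all transcripts tested were. The share called rose with level, from 32.9% in the lowest to 75.3% in the highest of 4 bins by that mean. In that highest bin 1612 of 3265 transcripts were higher and 848 lower, shares near those of the 100. The 100 therefore show no clear excess of higher transcripts for their level. Only 5 of the 100 rose and 1 fell by 2-fold or more. Log2 fold changes of the 100 ran from -2.17 to 1.82, with a median absolute change of 0.25. At the other end, 12 transcripts had 0 counts in all 3 S94A libraries and at least 10 counts in each wild-type library. Against a floor of 3 counts over the S94A group (0.0736 CPM) they were at least 12.0-fold to at least 64.4-fold lower. Their wild-type means were low, 0.883 to 4.74 CPM. In double knockdown cells 8 of the 12 had 0 counts in all 3 libraries, and the others had up to 5 counts summed over the group. No transcript showed the reverse, 0 counts in wild type and at least 10 in each S94A library. The count minimum of 10 was chosen after the data were seen. That rule fixes a large fold bound in advance, so the size of these bounds is not a result. No share over all transcripts was computed for the double knockdown counts.

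Double knockdown cells without the YAP mutant give the values to set beside these. The comparisons share the wild-type libraries, so their likeness is not a result. Against wild type, 4593 transcripts were higher and 4587 lower in double knockdown cells (35.2% and 35.1% of those tested), and past 2-fold there were 636 higher (4.87%) and 1102 lower (8.44%). The difference between the knockdown groups was tested directly: 3381 transcripts were higher in S94A than in double knockdown cells (25.9%) and 3313 lower (25.4%), and past 2-fold there were 339 higher (2.60%) and 247 lower (1.89%).

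To follow the knockdown response in libraries that had no part in choosing it, transcripts were taken from experiment 1, which shares no library with experiment 2. There, confluent double knockdown and wild-type cells were compared with 2 libraries each, and 5599 transcripts were called (43.6%). The 812 that rose 2-fold or more (6.32%) formed the knockdown-raised set, and the 1254 that fell 2-fold or more (9.76%) the knockdown-lowered set. Of the 812 raised transcripts, 781 could be tested in experiment 2. In S94A cells 513 of them were higher than in wild type (65.7%, against 29.1% of all tested) and 52 lower, and 216 were not called. Their median log2 fold change was 0.43, where that of all tested transcripts was 0.01. Double knockdown cells gave a median of 0.77 for the same 781, with 653 higher (83.6%, against 35.2% of all tested) and 34 lower. In the direct test 529 of the 781 were lower in S94A than in double knockdown cells (67.7%, against 25.4% of all tested) and 64 higher, with a median of -0.42. By its medians the raised set lay above wild type and below the double knockdown in S94A cells.

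The knockdown-lowered set gave the mirror image. Of 1228 members tested, 812 were lower in S94A cells than in wild type (66.1%, against 27.2% of all tested) and 93 higher, with a median of -0.51. In double knockdown cells 1000 were lower (81.4%, against 35.1%) and 51 higher, with a median of -0.93. Against double knockdown cells, 670 were higher in S94A cells (54.6%, against 25.9%) and 106 lower, with a median of 0.38. At least 2-fold below wild type were 315 of the 1228 in S94A cells (against 5.22% of all tested) and 578 in double knockdown cells (against 8.44%). For the raised set, 116 of 781 in S94A cells (against 2.44% of all tested) and 282 in double knockdown cells (against 4.87%) were at least 2-fold above wild type.

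Summed levels show the same order in single libraries. The knockdown-raised set came to 3.08%, 3.06% and 3.09% of 1000000 CPM in the wild-type libraries and 4.42%, 4.35% and 4.42% in the S94A libraries. In the double knockdown libraries it was 5.75%, 5.73% and 5.72%. No S94A value overlapped either other group. The knockdown-lowered set was at 7.32%, 7.26% and 7.21% in wild type, 5.35%, 5.33% and 5.33% in S94A cells, and 3.83%, 4.03% and 4.09% in double knockdown cells. Here too the 3 groups were separate. In the libraries labelled YAP5SA, the raised set was at 4.42% and 4.33% and the lowered set at 7.39% and 7.21%. Their raised-set levels were thus near those of S94A cells and their lowered-set levels near those of wild type.

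**Figure D3:**
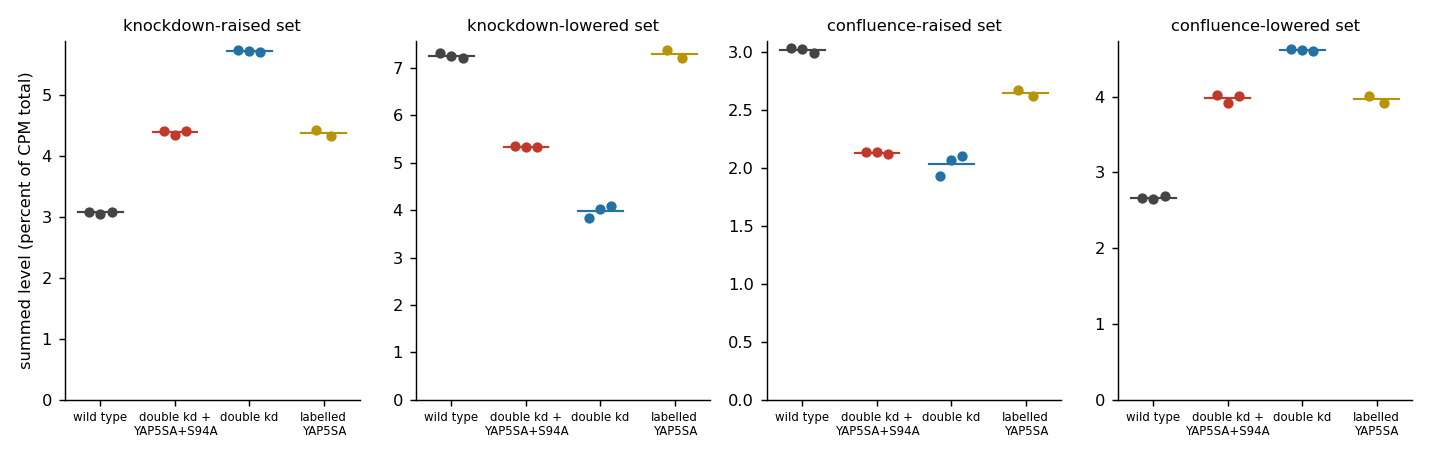
Points are libraries of experiment 2 and lines group means, on linear axes that start at 0. The y axis gives the summed level of a set chosen in experiment 1, and "kd" stands for knockdown. Its "percent of CPM total" is percent of 1000000 CPM after TMM scaling. S94A cells lie between wild type and double knockdown in all 4 sets, nearest to the double knockdown for the confluence-raised set. In that set the separation of S94A from double knockdown libraries depends on the scaling.

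The intermediate position held over the range of sizes seen in experiment 1. The 205 tested transcripts that were 8-fold or more lower there had median log2 fold changes of -2.08 in double knockdown and -1.38 in S94A cells, both against wild type, and 0.70 between the knockdown groups. For the 259 transcripts 4 to 8-fold lower these medians were -1.25, -0.68 and 0.45, and for the 764 at 2 to 4-fold lower -0.74, -0.37 and 0.34. On the raised side, 659 transcripts at 2 to 4-fold had medians of 0.69, 0.38 and -0.37. The 93 at 4 to 8-fold had 1.64, 0.85 and -0.83, and the 29 at 8-fold or more had 3.13, 1.78 and -1.19. The 7012 transcripts not called in experiment 1 had medians of 0.01, 0.00 and -0.01. Among the 29 most raised, 20 were still higher than wild type in S94A cells (against 29.1% of all tested) and 23 were lower than in double knockdown cells (against 25.4%). Among the 205 most lowered, 159 were still lower than wild type (against 27.2% of all tested) and 104 were higher than in double knockdown cells (against 25.9%), while 28 were lower still (against 25.4%).

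**Figure D4:**
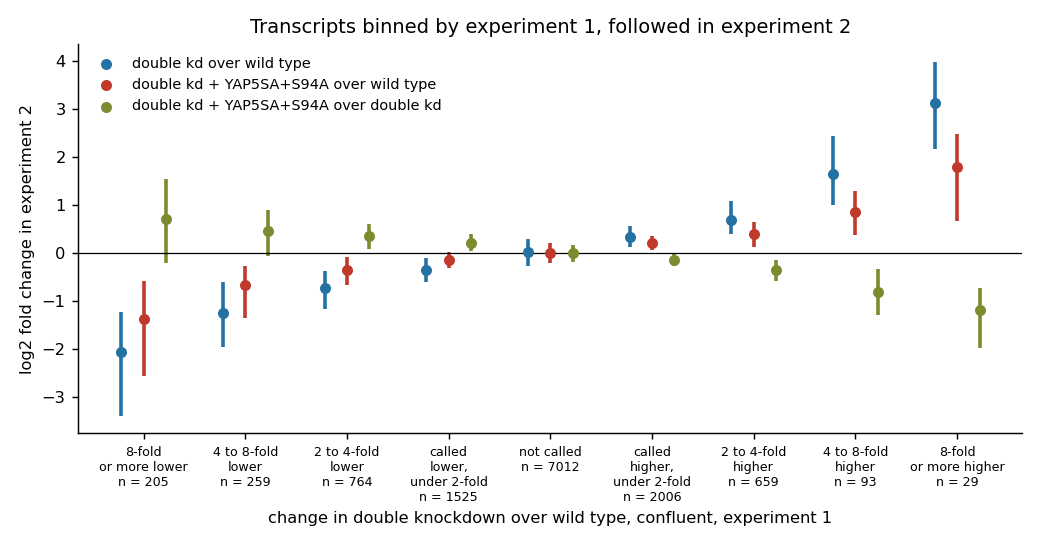
Transcripts were binned by their change in confluent double knockdown over wild-type cells in experiment 1 (x axis, with the number in each bin). Points are median log2 fold changes in experiment 2 and bars span the middle quartiles of transcripts, not an error. In each bin called in experiment 1 the median of S94A over wild type (red) lies between 0 and that of the double knockdown (blue).

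Calls could also be compared over all transcripts between S94A cells in experiment 2 and double knockdown cells in experiment 1, again with no shared library. Both experiments tested 12552 transcripts, and 1747 rose in both, which is 46.3% of the 3773 higher in S94A cells and 62.7% of the 2787 higher in experiment 1. Of all 12552, 22.2% were higher in experiment 1 and 30.1% in S94A cells. A further 1590 were called lower in both, 46.9% of 3391 and 57.8% of 2753, where 21.9% of all were lower in experiment 1 and 27.0% in S94A cells. Opposite calls numbered 528, or 7.37% of the S94A calls. Of the S94A calls 3299 were not called in experiment 1, and 1675 calls of experiment 1 were not called in S94A cells. Experiment 1 had 2 libraries per group and a biological coefficient of variation of 0.128, and experiment 2 had 0.0303. Among the 12552, 19 transcripts were at least 2-fold higher in S94A cells and 2-fold lower in experiment 1, and 20 the reverse. Over all tested in each experiment, 2.44% were at least 2-fold higher and 5.22% lower in S94A cells. In experiment 1 these shares were 6.32% and 9.76%. For the 19, the median log2 fold change over wild type was 1.19 in S94A and 0.12 in double knockdown cells of experiment 2. For the 20 it was -1.63 and -0.68. The S94A medians follow from the choice at 2-fold, and both groups share the wild-type libraries, so their contrast is not a result.

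Cell density was the other variable of the study, and experiment 1 held wild-type cells at both densities, confluent and sub-confluent (2 libraries each). The confluence-raised set is the 780 transcripts 2-fold or more higher at confluence there (6.07%), and the confluence-lowered set the 457 lower by as much (3.56%). Of 759 confluence-raised members tested, 468 were lower in S94A cells than in wild type (61.7%, against 27.2% of all tested) and 49 higher, with a median of -0.46. Double knockdown cells had 527 lower (69.4%, against 35.1% of all tested) and 66 higher, with a median of -0.64. Between the knockdown groups the median was 0.16, with 274 higher in S94A cells (36.1%, against 25.9%) and 106 lower (13.97%, against 25.4%). Of 441 confluence-lowered members, 255 were higher than wild type in S94A cells (57.8%, against 29.1%) and 41 lower, with a median of 0.34. The double knockdown raised 304 of them (68.9%, against 35.2% of all tested) and lowered 68, and their median was 0.55. Between the knockdown groups 238 were lower in S94A cells (53.97%, against 25.4%) and 96 higher, with a median of -0.26. All cells of experiment 2 were confluent by label, and most members called in S94A cells had moved in the direction seen in sub-confluent wild-type cells of experiment 1.

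In summed level, the confluence-raised set was at 3.04%, 3.03% and 2.99% of 1000000 CPM in wild type. It was at 2.14%, 2.14% and 2.12% in S94A cells and 1.93%, 2.07% and 2.10% in double knockdown cells. The S94A libraries were near the double knockdown ones and far below wild type. The confluence-lowered set was at 2.67%, 2.65% and 2.68% in wild type, 4.02%, 3.92% and 4.00% in S94A cells and 4.63%, 4.62% and 4.60% in double knockdown cells. After TMM scaling each group was apart from the others in both sets. For the confluence-raised set the lowest S94A value, 2.12%, lay close to the highest double knockdown value, 2.10%. TMM factors were 0.976 to 0.981 in S94A and 0.987 to 0.998 in double knockdown libraries, so that separation depends on the scaling. The density calls of experiment 1 depended on single libraries. There were 3769 (29.3%). Leaving out a confluent wild-type library gave 1918 (replicate 1) or 1775 (replicate 2), and leaving out a sub-confluent one 2323 (replicate 1) or 1415 (replicate 2). With sets from those fits, 62.8% to 66.6% of confluence-raised members were lower and 60.9% to 67.8% of confluence-lowered members higher in S94A cells. The main fit gave 61.7% and 57.8%. Shares were lower with same-numbered libraries of experiment 1 blocked within density (59.1% and 56.6%), with DESeq2 (54.5% and 56.3%) and without the filter (54.2% and 53.7%). They were also lower without single S94A or wild-type libraries of experiment 2 (57.0% to 59.8% and 54.8% to 57.5%).

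The knockdown sets overlap the density sets, and both rest on the confluent wild-type libraries of that experiment. They were therefore split by the density call. Knockdown-lowered members called higher at confluence by under 2-fold, and knockdown-raised members called lower by under 2-fold, are in neither part. The parts still rest on those wild-type libraries. The 441 tested transcripts lowered by knockdown and raised at confluence had a median of -0.63 in S94A cells over wild type, with 319 lower (72.3%, against 27.2% of all tested) and 15 higher. In double knockdown cells it was -1.04. The 604 that were lowered by knockdown and not called higher at confluence had medians of -0.43 and -0.91, with 353 lower (58.4%) and 68 higher in S94A cells. Between the knockdown groups the medians were 0.32 and 0.44. The 240 raised by knockdown and also lowered at confluence had a median of 0.41 in S94A cells, with 163 higher (67.9%, against 29.1% of all tested) and 8 lower, and the 351 not called lower at confluence a median of 0.40, with 192 higher (54.7%) and 38 lower. In double knockdown cells these medians were 0.76 and 0.81. Whether the parts of a split differ was not tested.

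Sets from each knockdown alone, also at confluence in experiment 1, were followed in the same way. The p190A shRNA raised 169 transcripts (1.32%) and lowered 428 (3.33%) by 2-fold or more, and the p190B shRNA 303 (2.36%) and 321 (2.50%). Of 161 tested members of the p190A-raised set, 122 were higher in S94A cells than in wild type (75.8%, against 29.1%) and 14 lower, with a median of 0.66. In double knockdown cells 117 were higher (72.7%, against 35.2%) and 17 lower, with a median of 0.92. Of 278 raised by the p190B shRNA, 165 were higher in S94A cells (59.4%) and 51 lower (18.3%, against 27.2%), with a median of 0.44 where double knockdown cells had 0.74. On the lowered side, 292 of 420 transcripts of the p190A shRNA (69.5%, against 27.2%) were lower in S94A cells and 50 higher (11.9%, against 29.1%). For the p190B shRNA 206 of 316 were lower (65.2%) and 58 higher (18.4%). Their medians were -0.71 and -0.64, against -1.26 and -1.25 in double knockdown cells.

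The transcripts changed by 2-fold or more in S94A cells were then read in experiment 1. Of the 319 raised, 293 were tested there. In confluent double knockdown cells 143 of these were higher (48.8%, against 21.9% of all tested) and 25 lower, with a median log2 fold change of 0.84. The p190A shRNA alone gave 82 higher (27.99%, against 6.51%) and 15 lower, and the p190B shRNA alone 75 higher (25.6%, against 7.04%) and 21 lower, with medians of 0.49 and 0.27. In sub-confluent double knockdown over sub-confluent wild-type cells 107 were higher (36.5%, against 16.7%) and 50 lower, with a median of 0.33. Between confluent and sub-confluent wild-type cells 111 were lower at confluence (37.9%, against 15%) and 20 higher, with a median of -0.64. With same-numbered libraries blocked within density the 20 became 13. These density values rest on the library-dependent calls described above.

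Of the 682 transcripts lowered by 2-fold or more, 543 were tested in experiment 1. Confluent double knockdown cells had 340 lower (62.6%, against 21.6%) and 22 higher, with a median of -1.61. The p190A shRNA lowered 183 (33.7%, against 6.94%) and raised 8, and the p190B shRNA lowered 129 (23.8%, against 5.64%) and raised 32, with medians of -0.89 and -0.52. In sub-confluent cells 237 were lower with both shRNAs (43.6%, against 18.1%) and 29 higher, with a median of -1.08. At confluence in wild-type cells 204 were higher (37.6%, against 14.3%) and 19 lower, with a median of 0.86. The confluent comparisons of experiment 1 share their wild-type libraries and are set side by side only.

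The patterns are shown in single libraries by 4 transcripts, 1 for each direction and for each of 2 classes. All were called in S94A cells over wild type and, with the same sign, in confluent double knockdown cells of experiment 1, averaged 3 or more on the log2 CPM scale and had S94A values that did not overlap wild type. In the first class S94A and double knockdown cells were not called different (402 transcripts higher and 287 lower than wild type), and in the second S94A cells were called nearer to wild type than double knockdown cells (984 higher and 783 lower). A further 214 transcripts were called higher, and 86 lower, in S94A cells than in both wild-type and double knockdown cells. Over all tested, 25.9% were higher and 25.4% lower in S94A than in double knockdown cells. The sizes of these classes depend on the rules for entry and are not read as a result. The transcript with the largest absolute change over wild type was taken from each direction of the first and second class. Their positions among the groups of experiment 2 and their p-values there follow from this choice, and are shown as examples only.

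ENSCAFT00000004895 was the transcript of the first class that rose most. Its level was 8.98, 9.43 and 7.83 CPM in the wild-type libraries and 44.9, 42.2 and 44.0 CPM in the S94A libraries. The groups were far apart, with a log2 fold change of 2.32 (SE 0.08, edgeR adjusted p = 3.0e-34). Double knockdown libraries had 40.1, 39.4 and 40.2 CPM, all just below the S94A values, and the difference between the knockdown groups, 0.13 (SE 0.06), had an edgeR adjusted p of 0.054. That difference passed the threshold in 7 of 15 alternatives, among them the fits without S94A replicate 2 (0.16, adjusted p = 0.043) and without wild-type replicates 1, 2 and 3 (adjusted p = 0.049, 0.043 and 0.048), and the range over all alternatives was 0.035 to 0.18. In the libraries labelled YAP5SA it was at 32.4 and 35.0 CPM. In experiment 1 the p190B shRNA alone took it from 6.65 ± 1.43 to 35.6 ± 2.62 CPM (SD, n = 2 each), while with the p190A shRNA it was at 7.06 ± 0.367 CPM (SD, n = 2). The p190B change was called (2.43, SE 0.26, edgeR adjusted p = 4.3e-05) and that of p190A was not (0.10, SE 0.29, adjusted p = 0.88).

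ENSCAFT00000025377 fell most in the first class, from 10.96, 10.2 and 9.70 CPM in wild type to 0.359, 0.741 and 0.583 CPM in S94A cells. The S94A values rest on 5, 11 and 7 counts. The log2 fold change was -4.17 (SE 0.20, edgeR adjusted p = 4.3e-26). Double knockdown libraries had 0.478, 0.755 and 0.949 CPM, which overlap the S94A libraries. The difference of -0.35 (SE 0.38, edgeR adjusted p = 0.47) leaves room for a change in either direction at these counts. Libraries labelled YAP5SA stood at 35.3 and 37.4 CPM, above wild type. In experiment 1 its fall with both shRNAs (-3.09, SE 0.82, edgeR adjusted p = 7.8e-03) was no longer called without double knockdown replicate 2 (-2.09, adjusted p = 0.077). Neither shRNA alone gave a call, with p190A at -0.64 (SE 0.64, edgeR adjusted p = 0.59) and p190B at 1.06 (SE 0.58, edgeR adjusted p = 0.30).

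ENSCAFT00000035800 rose most in the second class. It was at 2.10, 2.32 and 2.08 CPM in wild type and at 26.2, 24.8 and 27.2 CPM in S94A cells, a log2 fold change of 3.58 (SE 0.11, edgeR adjusted p = 3.4e-35). Double knockdown libraries reached 71.6, 74.998 and 72.8 CPM. All 3 groups were separate, and S94A cells were lower than double knockdown cells by a log2 fold change of -1.49 (SE 0.06, edgeR adjusted p = 9.8e-31). The libraries labelled YAP5SA had 1.64 and 2.13 CPM, which overlaps the wild-type range. In wild-type cells of experiment 1 it was lower at confluence than in sub-confluent cells (-1.72, SE 0.56, edgeR adjusted p = 0.034). That value comes from the density comparison whose calls depended on single libraries, as described above.

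ENSCAFT00000026001 fell most in the second class. Wild-type libraries had 252, 266 and 245 CPM and S94A libraries 7.69, 8.01 and 8.57 CPM, a 31.5-fold lower level (log2 fold change -4.98, SE 0.06, edgeR adjusted p = 3.2e-56). Double knockdown libraries were lower still, at 1.67, 1.28 and 2.34 CPM, and S94A cells were above them by a log2 fold change of 2.17 (SE 0.15, edgeR adjusted p = 1.8e-18). The groups did not overlap, and the S94A values were nearer to the double knockdown than to wild type in CPM. With the YAP5SA label the level was 202 and 199 CPM.

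**Figure D5:**
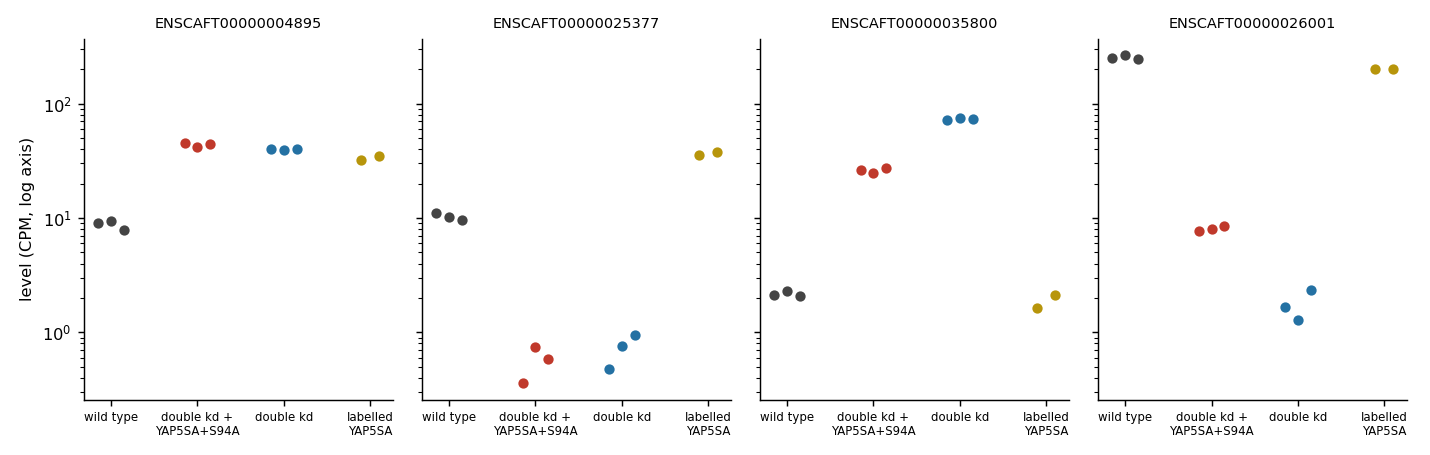
Points are libraries of experiment 2, with the level of each transcript in CPM on a log axis and "kd" for knockdown. By the rule that chose them, S94A libraries sit beside the double knockdown for ENSCAFT00000004895 and ENSCAFT00000025377. They sit between wild type and the double knockdown for ENSCAFT00000035800 and ENSCAFT00000026001, also by that rule.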

How the data were processed

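Whole-number read counts for 29884 Ensembl dog transcripts were deposited by the authors, 1 table per sample, not normalized, with 5 summary rows that name no transcript. Tools listed, per the submitters' processing notes, were DESeq2 1.4.5, HTSeq 0.6.0 and STAR 2.3.1n, with CanFam3.1 as build and no roles. Libraries came from a TruSeq mRNA kit and were read from 1 end, per the labels' protocols. The strand setting of the counting was not given in the sources used here. Reads on overlapping transcripts fell in the ambiguous row, which held 20.3% to 20.7% of uniquely aligned reads in the 6 libraries compared, so overlapping transcripts are measured from part of their reads. The summary rows entered neither library sizes nor tests.

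Tests used edgeR 4.0.16 in R 4.3.3 (filterByExpr, TMM, robust quasi-likelihood F-tests, Benjamini-Hochberg adjustment over all transcripts tested). Experiment 2 was fitted as 4 groups (11 distinct libraries) and experiment 1 as 8 groups (16 libraries). The SE came from the F statistic. The same edgeR steps, in a fit of the S94A and wild-type groups only, were tried on simulated counts. The fits of 4 and 8 groups, the blocks and the set counts were not tested in that way. CPM values include the TMM factors. Replicates of the compared groups differed beyond counting noise (chi-square over its degrees of freedom 1.59 to 3.52, transcripts with 20 or more summed counts). The members, sets and rules were chosen with earlier results of these data known, and the fixed gene lists were not run, since identifiers were not paired with symbols. With no symbols, the rule printed 1 transcript for each class and direction. Splits of the sets, single-knockdown sets, fold bins, level bins and the reading of S94A sets in experiment 1 were added after the data were seen. Same-numbered confluent libraries of experiment 1 deviated together (r across transcripts 0.206 to 0.537 in 6 pairs), so a block within density was also fitted there. Among the counts refitted with it, 1 moved by over 1.5 times and is given beside its value. Alternatives were RLE scaling, no filter, DESeq2 1.42.0, fits of the groups compared only, a replicate block, glmTreat, and fits without single libraries.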

Additional observations from a re-analysis of the deposited data

How the results depend on the processing

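Counts of calls, set shares and overlaps, 12 results under 198 alternatives, stayed within 1.5 times their value in 193. The exceptions were 1208 calls for S94A against wild type with glmTreat at 1.5-fold, by construction a stricter test, and the density calls of experiment 1, 3769, which fell to between 1415 and 2323 without single libraries. The 7361 calls became 6323 with DESeq2, 7363 with RLE factors, 7405 without the filter, 7282 without the libraries labelled YAP5SA and 6793 to 7533 without single libraries. Without the libraries labelled YAP5SA, 3638 were higher and 3644 lower, in place of 3807 and 3554. Calls of at least 2-fold were then 922 in place of 1001. Same-letter libraries of experiment 2 did not deviate together (r across transcripts -0.0349 to 0.0188), so the letters are not taken as pairs. The fit with a replicate block called 7243. In experiment 1 a block within density gave 6662 in place of 5599 calls for the double knockdown. Depth was lowest in the lowest level bin, where 33.3% of transcripts passed the threshold, against 74.3% in the highest, and a small change there may have gone undetected.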

Other observations

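The summary rows, which entered no test, also differed between groups. Reads aligned to 1 place outside any transcript were 22.1% to 22.6% of uniquely aligned reads in S94A libraries, 22.4% to 22.6% in double knockdown and 23.2% to 23.8% in wild-type libraries, with no overlap between S94A and wild type. Alignments to several places were 25.3% to 25.6% of all entries in S94A, 25.5% to 25.9% in wild-type and 27.2% to 27.5% in double knockdown libraries, where S94A and wild type overlapped and the double knockdown stood above both.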
